A study of Mus musculus with 9 samples.

Results

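The levels of 10 long noncoding RNAs were compared between mouse mammary tumors that lacked the stress-inducible chaperone genes Hspa1a and Hspa1b and tumors that carried them. They were the nuclear RNAs Malat1 and Neat1, the imprinted RNAs H19, Kcnq1ot1 and Meg3, the small nucleolar RNA (snoRNA) host genes Gas5, Snhg1 and Snhg12, Pvt1, which lies beside the oncogene Myc, and Mir17hg, the host of a microRNA cluster. The members were taken by gene symbol, 10 of the 55403 entries of the count table, from a list of symbols drawn up with earlier results of these data known. The tumors came from female mice of the strain labelled C57BL/6 MUC1.Tg MMTV-PyMT (MMT), which express the polyoma middle T oncogene from the promoter of mouse mammary tumor virus and carry human MUC1 as a further transgene. Tumors of the genotype Hspa1a/Hspa1b-/- (KO; 5 samples, ages 120 to 125 days) were set against tumors of the genotype Hspa1a/Hspa1b+/+ (WT; 4 samples, ages 122 to 132 days), so both groups had the oncogene and the human transgene. The tissue was dissociated with collagenase and trypsin before RNA was extracted, and ribosomal RNA was depleted before stranded libraries were made, so RNAs without a poly(A) tail could enter the libraries too. The labels describe separate tumor samples without animal numbers, and p-values therefore measure the spread between these samples.

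Long noncoding RNAs are transcripts without a long open reading frame, and the 10 followed here work in different ways. Malat1 and Neat1 stay in the nucleus, where Malat1 gathers in splicing-factor speckles and Neat1 is the scaffold of paraspeckles, and both have been studied in breast cancer and in MMTV-PyMT mice. H19, Kcnq1ot1 and Meg3 are each made from the copy inherited from a single parent, and Kcnq1ot1 silences its neighbours on the chromosome that makes it. Gas5, Snhg1 and Snhg12 carry snoRNAs in their introns, and their spliced remnants are degraded by nonsense-mediated decay. Pvt1 shares a regulatory region with Myc and is often gained with it in tumors, and Mir17hg is the precursor of the miR-17-92 cluster, a target of Myc that promotes growth.

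The microRNAs cut from these hosts show how a single transcript feeds several target specificities, so their mature forms are given first. They are RefSeq sequences on GRCm38.p6, written 5′ to 3′ with the seed, bases 2 to 8, in capitals. Mir17hg on chromosome 14 held 6 annotated microRNA genes, and the arms printed fall into 4 seed groups.
mmu-miR-17-5p, chr14:115043684-115043706, plus strand: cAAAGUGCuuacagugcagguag
mmu-miR-20a-5p, chr14:115044183-115044205, plus strand: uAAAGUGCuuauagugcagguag
mmu-miR-18a-5p, chr14:115043867-115043889, plus strand: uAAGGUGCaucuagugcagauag
mmu-miR-19a-3p, chr14:115044048-115044070, plus strand: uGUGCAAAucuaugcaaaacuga
mmu-miR-19b-3p, chr14:115044358-115044380, plus strand: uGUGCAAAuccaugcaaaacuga
mmu-miR-92a-3p, chr14:115044476-115044496, plus strand: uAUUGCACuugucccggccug
miR-17-5p and miR-20a-5p share the seed AAAGUGC, and miR-19a-3p and miR-19b-3p share GUGCAAA, while miR-18a-5p and miR-92a-3p each have a seed of their own in this set. H19 on chromosome 7 holds 1 microRNA gene, Mir675, whose arms have different seeds.
mmu-miR-675-5p, chr7:142577112-142577133, minus strand: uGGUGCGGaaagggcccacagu
mmu-miR-675-3p, chr7:142577078-142577099, minus strand: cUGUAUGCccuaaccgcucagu
The values below are for the host transcripts. The 6 microRNA genes inside Mir17hg and the 1 inside H19 had 0 counts in every library, so the levels of the microRNAs themselves cannot be read from the table.

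The transcription starts of the snoRNA hosts were searched for a known feature. Genes of this kind often begin with a run of pyrimidines, the terminal oligopyrimidine motif through which growth signals control translation in mammals. The windows below run from 50 bases before the RefSeq start to 30 bases from it onward (GRCm38.p6, plus strand), with the longest run of C or T that reaches within 10 bases of the start in capitals. Gas5 has another RefSeq start, at base 161034601 of chromosome 1, where the longest run was 3 bases, and the window shown was picked for its longer run.
Gas5, chr1:161035116-161035195: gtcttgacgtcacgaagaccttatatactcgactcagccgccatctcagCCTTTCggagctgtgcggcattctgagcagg
Snhg1, chr19:8723437-8723516: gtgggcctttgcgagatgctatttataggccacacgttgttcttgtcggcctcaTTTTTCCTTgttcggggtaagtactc
Snhg12, chr4:132308628-132308707: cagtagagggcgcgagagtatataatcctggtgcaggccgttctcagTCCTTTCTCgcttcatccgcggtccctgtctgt
The runs were 9 bases long in Snhg1 and Snhg12 and 6 at the Gas5 start shown. In Snhg12 and Gas5 the run spans the RefSeq start, while in Snhg1 it lies wholly after it, so the annotated Snhg1 transcript does not begin with it. A run of at least 9 bases was present in 9.75% of the 32851 mouse promoters in the RefSeq table, and a run of at least 6 in 30%. The Malat1, Kcnq1ot1, Mir17hg and Meg3 entries had runs of 2 to 5 bases, and 7 of the 10 members had an entry. The letters TATATA, which read the same on both strands, were found in the 300-base promoters of Snhg12, of this Gas5 start and of a Meg3 start, and in 5.67% of all promoters. These matches describe the letters and do not show that a site is used.

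Libraries ranged from 11500920 to 19136317 fragments, with 4410399 to 6221181 counts on genes. Levels are given in CPM, counts scaled to library size, and 3 counts, the most that a count of 0 allows for by counting error, equal 0.482 to 0.680 CPM. The genotype labels were met: Hspa1b had 6 counts over the KO libraries and 1043 over the WT libraries, and Hspa1a had 23 over the KO and 139 over the WT libraries. The tumor label was met by the epithelial marker Epcam, an adhesion molecule that was high in all libraries. It averaged 710 ± 154 CPM in KO and 970 ± 336 CPM in WT tumors (SD, n = 5 and 4). Not every epithelial marker was high. Over all libraries the keratin Krt14 ran from 12.38 to 35.89 CPM and Krt5 from 5.09 to 10.3 CPM. KO libraries had more fragments outside annotated genes, 56.6 ± 2.34% of uniquely mapped fragments against 53.2 ± 1.89% in WT (SD; exact permutation p = 0.0476, two-sided). That share is set beside the RNAs below.

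The 10 RNAs together took 2.89% to 4.25% of the gene counts of a library, most of it Malat1, which alone took 2.11% to 3.52%. Malat1 made up 47.4% to 61.6% of all counts on genes annotated as long noncoding, and it ranked first and Neat1 second among the 842 such genes with enough counts to test. Kcnq1ot1 was at rank 4 and Gas5 at rank 14, while H19 was at rank 460. Per length of exon, Malat1 averaged 4370 ± 578 CPM per kilobase of exon (SD, n = 9 libraries), Neat1 284 ± 33.6 and Gas5 33.1 ± 3.19. These first 3 were separated from each other and from the rest, with no overlap between libraries. Below them Snhg1, at 10.0 ± 0.851 CPM per kilobase, and Kcnq1ot1, at 9.88 ± 2.65, overlapped, as did Kcnq1ot1 and Snhg12 (7.28 ± 0.798), Snhg12 and Mir17hg (4.57 ± 1.95), and Mir17hg and Pvt1 (2.95 ± 0.894). H19 (1.63 ± 0.722) and Meg3 (0.726 ± 0.235) closed the order, and although their ranges overlapped, H19 was above Meg3 in each of the 9 libraries. Kcnq1ot1 owes its place in the count ranking to its 93092 bases of unspliced exon, since its level per kilobase was close to that of Snhg1. For Snhg1 and Snhg12 the annotated exons of all transcripts together cover the introns too, which lowers their values per kilobase. The same holds in large part for Gas5, whose 3760 exon bases lie in 3 blocks that take in its 10 snoRNA entries.

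**Figure D1:**
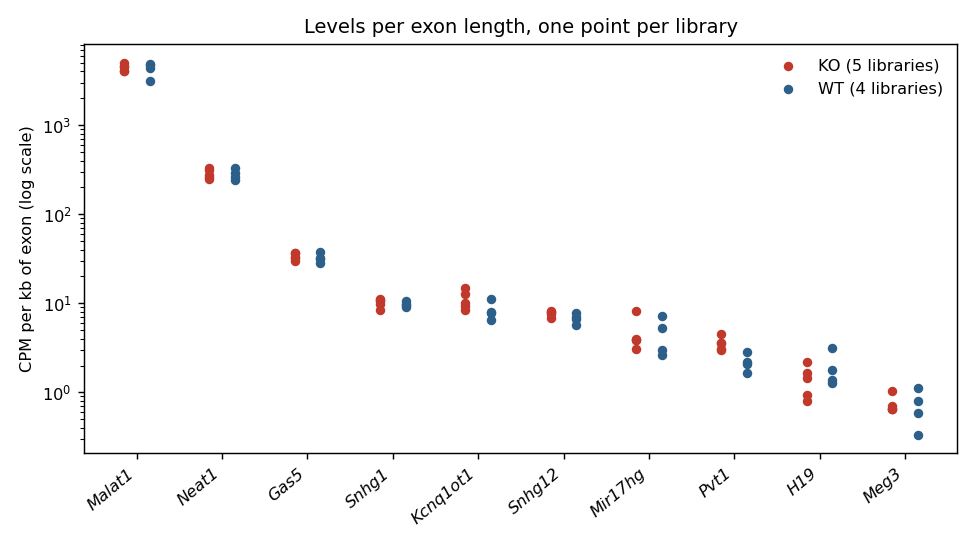
Level of each RNA in CPM per kilobase of exon on a log axis, with 1 point per library, KO to the left of WT. Malat1, Neat1 and Gas5 stand above the others without overlap, and the order below them runs through neighbours whose ranges overlap.

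None of the 10 RNAs passed the test between KO and WT tumors. By edgeR's quasi-likelihood test at a Benjamini-Hochberg adjusted p under 0.05, 0 of the 10 were called, where 0.0886% of the 14665 genes tested were. DESeq2 and limma-voom with sample weights also called none of them. All 10 passed the filter on low counts. The log2 fold changes of KO over WT were above 0 for 9 and below 0 for H19, with a median of 0.06 against -7.76e-05 over all genes tested. An unadjusted p under 0.05 was reached by Pvt1 alone, 1 of 10, where 7.95% of all genes tested reached it. Pvt1 was also the only member whose KO and WT libraries did not overlap, as was the case for 2.7% of all genes. The 95% intervals of the fold change lay between 0.596 and 1.81 for all members but H19, whose interval reached down to 0.427, and Pvt1, whose interval reached up to 2.14.

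**Figure D2:**
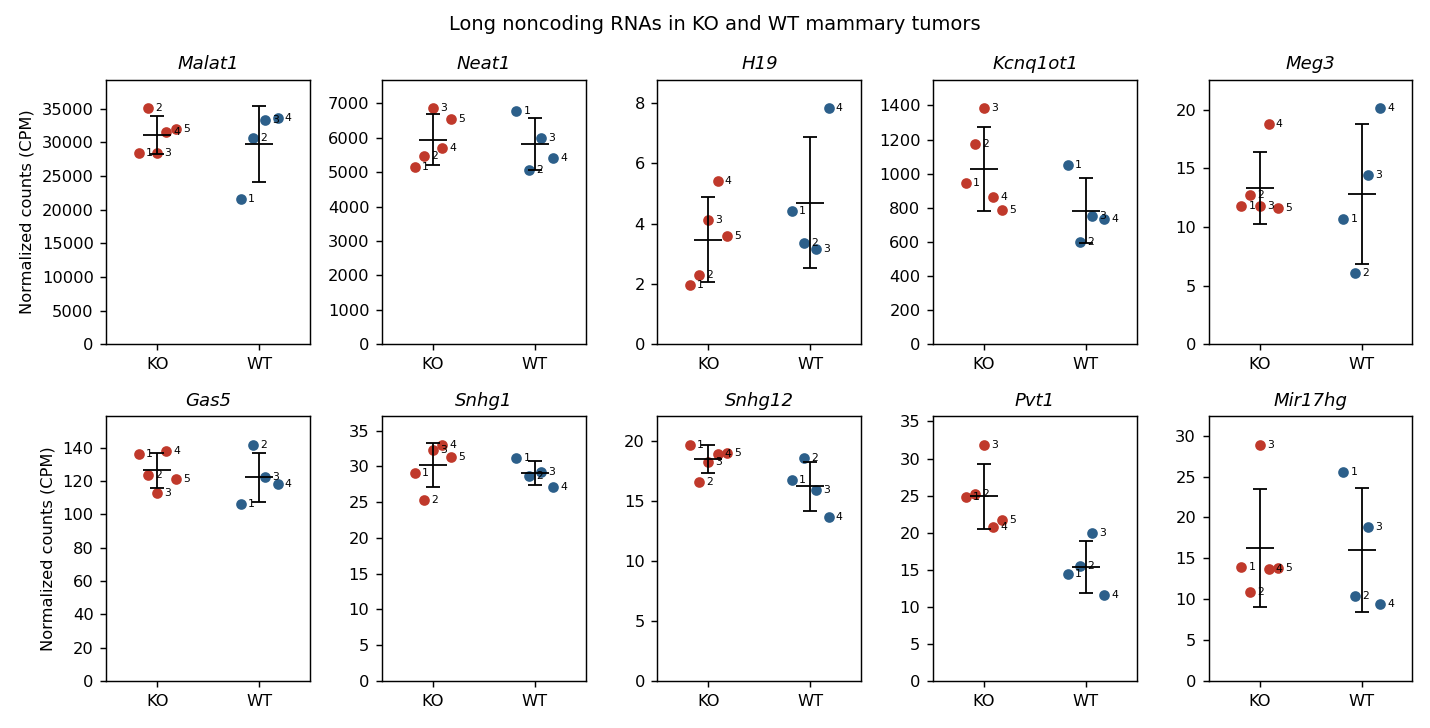
Normalized counts (CPM) of each RNA in every library, numbered by library, with the mean and SD of KO (left, n = 5) and WT (right, n = 4) as bars. The groups overlap in every panel except that of Pvt1, where the lowest KO library is at 20.8 CPM and the highest WT library at 19.9 CPM.

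**Figure D3:**
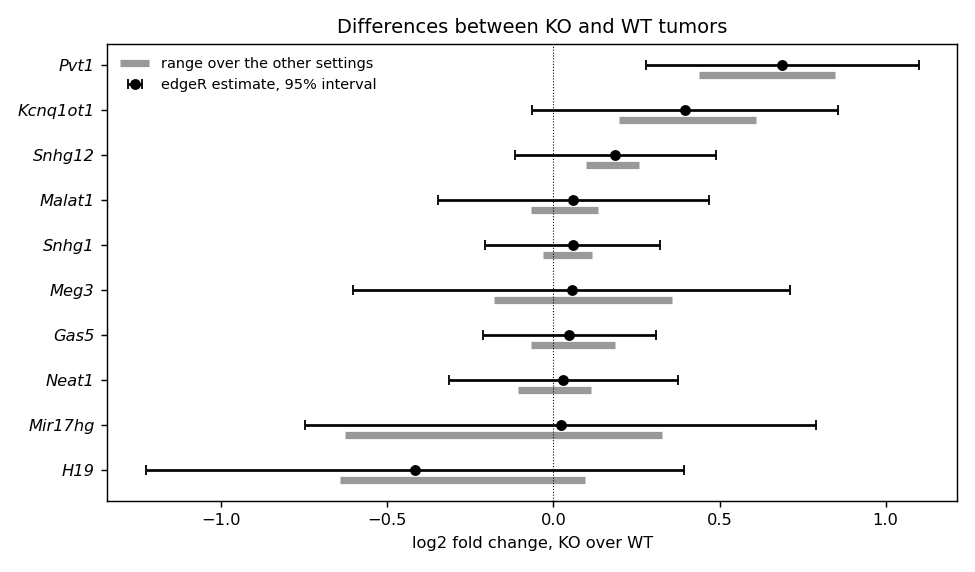
Log2 fold change of KO over WT with its 95% interval from edgeR (points and lines) and the range of the estimate over the other tests, scalings, filters and left-out libraries (grey bars). The interval of Pvt1 runs from 0.28 to 1.10 and those of the other 9 RNAs include 0.

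Pvt1 showed the largest difference of the 10. It lies on chromosome 15 (62037986 to 62378096, GRCm38, plus strand, ENSMUSG00000097039), 47611 bases beyond Myc, and its annotated exons add up to 6996 bases. Pvt1 had 24.8, 25.3, 31.9, 20.8 and 21.7 CPM in KO 1 to KO 5, against 14.4, 15.5, 19.9 and 11.6 CPM in WT 1 to WT 4. Every KO library lay above every WT library, though KO 4 and WT 3 were close. The KO tumors averaged 24.9 ± 4.35 CPM and the WT tumors 15.4 ± 3.45 CPM (SD), a 1.61-fold difference with a 95% interval of 1.21 to 2.14. The log2 fold change of 0.69 ± 0.19 (SE) had an unadjusted edgeR p of 0.0035 and an adjusted p of 0.477 over all genes, and thus did not pass. DESeq2 gave an adjusted p of 0.175. The exact permutation p was 0.00794, the smallest that 5 against 4 libraries can give, for a gene picked out here because it did not overlap. Without WT 1 and WT 4 the log2 fold change was 0.48, and with the share of fragments outside genes as a covariate it was 0.44 (edgeR adjusted p = 0.850), while leaving out each library in turn gave 0.57 to 0.85.

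Myc, the neighbour of Pvt1 and a transcription factor that drives growth and ribosome production, had 73.7 ± 19.7 CPM in KO and 62.2 ± 14.2 CPM in WT tumors (SD), and its groups overlapped (log2 fold change 0.24, SE 0.21, edgeR adjusted p = 0.780). The log2 ratio of Pvt1 to Myc within a library was -1.53 ± 0.53 in KO and -1.98 ± 0.48 in WT tumors (SD), a difference of 0.45 (exact permutation p = 0.183, two-sided) that did not exceed the spread of the libraries. Among 9 genes tested of a list of Myc family and target genes, none was called, 2 had a higher and 7 a lower estimate in KO, and the median log2 fold change was -0.06. That direction rested on WT 2, since without it 6 had a higher and 3 a lower estimate and the median was 0.10, and with age as a covariate the median was 0.03. Odc1, the first enzyme of polyamine synthesis and a classical Myc target, had the smallest p of that list. It averaged 12.1 ± 0.893 CPM in KO and 18.8 ± 3.21 CPM in WT (SD). Its log2 fold change of -0.64 ± 0.15 (SE) had an edgeR adjusted p of 0.381. Of the 9 genes only Odc1 had groups that did not overlap, as was the case for 2.7% of all genes tested.

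Over all 9 libraries Pvt1 had the highest correlation of the 10 RNAs with the share of fragments outside annotated genes, which did not pass after adjustment. Pearson's r was 0.79 (permutation p = 0.0115, 0.115 after Benjamini-Hochberg adjustment over the 10 members) and Spearman's rho 0.75 (permutation p = 0.0255, adjusted 0.255). Without KO 3 and WT 2, the libraries farthest from the median share, r was 0.65, and with the genotype means removed it was 0.56. Since the share also differed between the genotypes, genotype and share cannot be told apart fully in these libraries, and the part of the share in the Pvt1 difference was not tested beyond the covariate above. For Kcnq1ot1 r was 0.56 and for Mir17hg 0.48, and both turned negative without KO 3 and WT 2, at -0.37 and -0.24, so those relations rested on these libraries. With the genotype means removed r was 0.31 for Kcnq1ot1 and 0.60 for Mir17hg, the latter above that of Pvt1. The other members had r of -0.11 to 0.46. That of Neat1 also turned negative without KO 3 and WT 2, from 0.39 to -0.39. For Gas5 r was -0.11 over all 9 libraries and 0.88 without KO 3 and WT 2, above that of Pvt1 in the same 7 libraries, and for Snhg12 it was 0.33 over all and 0.62 without them.

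**Figure D4:**
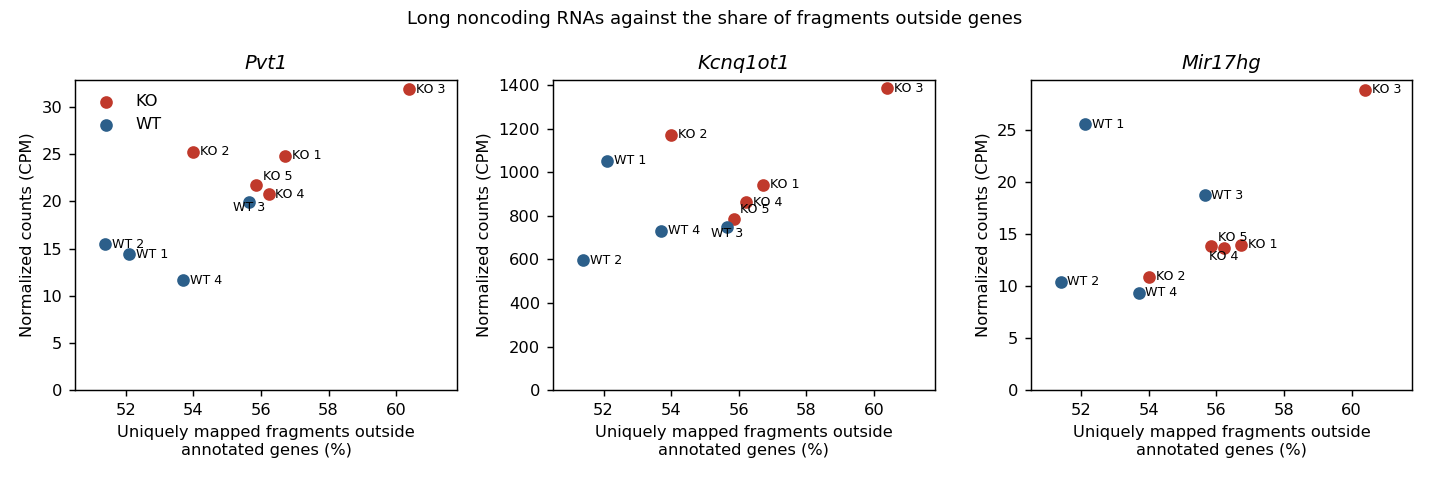
Normalized counts (CPM) of Pvt1, Kcnq1ot1 and Mir17hg against the percentage of uniquely mapped fragments that lay outside annotated genes, with 1 labelled point per library, KO in red and WT in blue. KO 3 has the highest share, 60.4%, and the highest level of each of the 3 RNAs.

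Malat1 and Neat1, neighbours on chromosome 19, did not differ between the genotypes beyond the spread of the libraries. Malat1 (5795690 to 5802672, minus strand, ENSMUSG00000092341) had 28446.5, 35111.5, 28363.6, 31490.1 and 31961.8 CPM in KO 1 to KO 5, against 21600.5, 30688.4, 33358.2 and 33604.7 CPM in WT 1 to WT 4. WT 1 was the lowest of all, and the KO libraries lay within the range of the WT libraries but for KO 2. Malat1 had a log2 fold change of 0.06 with an SE of 0.19 (edgeR adjusted p = 0.952), and the interval of the fold was 0.785 to 1.38. In bulk tumors such as these, fewer cells of a type and less RNA per cell cannot be told apart, here and below.

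Neat1 (5824708 to 5845478, minus strand, ENSMUSG00000092274), whose short and long forms are counted together, had 5140.1, 5458, 6864, 5704 and 6556 CPM in KO 1 to KO 5, against 6792, 5062, 6008 and 5426 CPM in WT 1 to WT 4. The groups overlapped almost entirely, with a log2 difference of 0.03 ± 0.16 (SE; edgeR adjusted p = 0.974) and a fold change interval of 0.804 to 1.30. Within a library, the log2 ratio of Neat1 to Malat1 was -2.39 ± 0.24 in KO and -2.34 ± 0.45 in WT tumors (SD; exact permutation p = 0.857, two-sided). WT 1, low in Malat1 and high in Neat1, had the highest ratio, -1.67.

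The proteins of the bodies that these RNAs occupy were also examined, and none was called. Of 20 nuclear speckle proteins all 20 had a higher estimate in KO, with a median log2 fold change of 0.17 against -7.76e-05 over all genes. Under other tests, scalings and left-out libraries 16 to 20 had a higher estimate and the median ran from 0.12 to 0.25. Clk4 and Clk1, kinases that phosphorylate splicing factors, had the smallest p. Clk4 averaged 190 ± 32.6 CPM in KO and 145 ± 20.3 CPM in WT (SD; log2 fold change 0.39, edgeR adjusted p = 0.616), and Clk1 443 ± 56.2 CPM in KO and 354 ± 41.4 CPM in WT (0.32, edgeR adjusted p = 0.616). The summed level of the list was 8292 to 9860.1 CPM in KO and 6602 to 8623 CPM in WT libraries, with overlap. Of 19 paraspeckle proteins 15 had a higher and 4 a lower estimate in KO, with a median of 0.16, or 0.09 without WT 1. Pspc1, a core paraspeckle protein, averaged 71.3 ± 3.98 CPM in KO and 59.8 ± 6.09 CPM in WT (log2 fold change 0.25, edgeR adjusted p = 0.616), and the RNA-binding protein Ewsr1 had 440 ± 32.8 CPM in KO and 368 ± 18 CPM in WT (0.26, edgeR adjusted p = 0.616). The paraspeckle proteins Sfpq and Nono, without which Neat1 does not form paraspeckles, had log2 fold changes of 0.11 and -0.02.

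Among the imprinted RNAs, Kcnq1ot1 had the highest level and the largest positive estimate. Kcnq1ot1 (chromosome 7, 143203458 to 143296549, minus strand, ENSMUSG00000101609) runs antisense through Kcnq1, a potassium channel gene, and had 943, 1172, 1384, 861 and 785 CPM in KO 1 to KO 5, against 1052, 597, 749.9 and 731 CPM in WT 1 to WT 4. All KO libraries exceeded 3 of the 4 WT libraries, while WT 1 lay among them. The difference was 1.31-fold with an interval of 0.956 to 1.81, or a log2 fold change of 0.40 with an SE of 0.21 (edgeR adjusted p = 0.654; exact permutation p = 0.151, two-sided). Kcnq1, whose exons share 121 bases with it on the opposite strand, had 4.38 ± 1.04 CPM in KO and 5.36 ± 2.52 CPM in WT tumors (SD), and Cdkn1c, a cell cycle inhibitor silenced by Kcnq1ot1, had 1.5 ± 0.499 CPM in KO and 1.45 ± 1.13 CPM in WT. Neither differed beyond its spread (edgeR adjusted p = 0.843 and 0.978), and nor did the log2 ratio of Kcnq1ot1 to Cdkn1c (difference 0.13, exact permutation p = 0.833).

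H19 and Meg3 were scarce. H19 (chromosome 7, 142575529 to 142578143, minus strand, ENSMUSG00000000031), an RNA of fetal tissues that returns in many tumors, had 1.97, 2.28, 4.10, 5.42 and 3.59 CPM in KO 1 to KO 5, against 4.42, 3.34, 3.16 and 7.83 CPM in WT 1 to WT 4. These values rest on 10 to 35 counts a library. The groups overlapped, and the log2 fold change was -0.42 with an SE of 0.37 (edgeR adjusted p = 0.783) and an interval of 0.427 to 1.31 as a fold, which includes a 2-fold lower level in KO. Igf2, the growth factor gene that shares enhancers with H19, had 0 counts over all KO libraries and 6 over all WT libraries, and no ratio to it was computed.

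Meg3 (chromosome 12, 109541001 to 109571726, plus strand, ENSMUSG00000021268), a maternally expressed RNA regarded as a growth suppressor, had 11.8, 12.7, 11.8, 18.8 and 11.6 CPM in KO 1 to KO 5, against 10.7, 6.06, 14.5 and 20.1 CPM in WT 1 to WT 4. The KO libraries lay within the WT range, with KO 4 apart from the other 4. Its log2 fold change was 0.06, with an SE of 0.30 and an edgeR adjusted p of 0.974. Rian, the next RNA of the same maternal locus, had 6.63 ± 1.41 CPM in KO and 6.86 ± 3.68 CPM in WT (SD), and the log2 ratio of Meg3 to Rian differed by 0.03 (exact permutation p = 0.944, two-sided).

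None of the other imprinted genes of the list was called. Besides the 3 members 17 had enough counts to test, 5 had a higher and 12 a lower estimate in KO, and the median log2 fold change was -0.15. The G protein gene Gnas averaged 304 ± 32.2 CPM in KO and 369 ± 25.5 CPM in WT (log2 fold change -0.28, edgeR adjusted p = 0.616). Igf2r, a receptor that clears IGF2, had 349 ± 35.7 CPM in KO and 494 ± 218 CPM in WT (-0.50, edgeR adjusted p = 0.631), and Peg3 115 ± 52.1 CPM in KO and 207 ± 94.5 CPM in WT (-0.85, edgeR adjusted p = 0.639). Impact, which restrains the kinase that senses amino acid shortage, had 56.9 ± 8.96 CPM in KO and 46.6 ± 4.36 CPM in WT (0.29, edgeR adjusted p = 0.639). Leaving out each library in turn gave medians of -0.27 without WT 2 to 0.03 without WT 1, and the median was 0.10 without WT 1 and WT 4 and 0.06 by limma-voom, so its sign rested on WT 1 and on the test.

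The snoRNA hosts had the lowest spread between replicates of the 10 RNAs as edgeR fits it, though not by every measure, since the highest library of Neat1 was 1.36 times its lowest and that of Snhg12 1.44 times. Gas5 (chromosome 1, 161034422 to 161038539, plus strand, ENSMUSG00000053332), which rises when growth stops and whose annotated span holds 10 snoRNA entries, had 136, 124, 113, 138 and 121 CPM in KO 1 to KO 5, against 106, 142, 123 and 118 CPM in WT 1 to WT 4. Its highest library was 1.33 times its lowest, and the groups overlapped throughout. By edgeR the genotypes differed by 0.05 ± 0.12 on the log2 scale (SE; adjusted p = 0.939), and the interval of the fold was 0.863 to 1.24.

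Snhg1 (chromosome 19, 8723475 to 8726443, plus strand, ENSMUSG00000108414), with 8 snoRNA entries, had 29.2, 25.3, 32.3, 33.0 and 31.3 CPM in KO 1 to KO 5, against 31.2, 28.6, 29.2 and 27.1 CPM in WT 1 to WT 4. The WT libraries fell within the range of the KO libraries. Snhg1 had a log2 fold change of 0.06 with an SE of 0.12 (edgeR adjusted p = 0.923) and an interval of the fold of 0.866 to 1.25. A gap of 105 bases separates it from Slc3a2, a subunit of amino acid transporters encoded on the other strand, which had 171 ± 22.2 CPM in KO and 173 ± 21.2 CPM in WT.

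Snhg12 (chromosome 4, 132308623 to 132311024, plus strand, ENSMUSG00000086290), with 5 snoRNA entries, had 19.7, 16.6, 18.2, 19 and 19 CPM in KO 1 to KO 5, against 16.7, 18.6, 16 and 13.7 CPM in WT 1 to WT 4. The groups overlapped, with WT 2 above KO 2 and KO 3 and WT 1 close to KO 2. Snhg12 had a log2 fold change of 0.19 with an SE of 0.14 (edgeR adjusted p = 0.730; exact permutation p = 0.0714, two-sided), with an interval of 0.923 to 1.40 as a fold. Its neighbour Trnau1ap, which helps to insert selenocysteine, averaged 31.4 ± 3.94 CPM in KO and 24.3 ± 2.96 CPM in WT, without overlap (log2 fold change 0.37 ± 0.14, edgeR adjusted p = 0.616). Taf12, another neighbour, went the other way, also without overlap. It averaged 12.7 ± 0.768 CPM in KO and 14.9 ± 1.15 CPM in WT (-0.23, edgeR adjusted p = 0.6815). No other of the 15 neighbours tested lacked overlap. Over all genes tested 2.7% lacked it, and both neighbours are named here for a small p. Among the 3 hosts the biological coefficient of variation, the spread between replicates beyond counting error that edgeR fits, fell at the 3.5, 7.9 and 12.1 percentile of all genes tested for Snhg1, Snhg12 and Gas5. That of Mir17hg, H19 and Meg3 fell at the 90.4, 88.5 and 82.2 percentile, and that of Malat1, Pvt1, Neat1 and Kcnq1ot1 between the 34.1 and 61.9 percentile.

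No gene linked to the hosts was called. Of 12 snoRNA host genes tested besides the 3 members, 5 had a higher and 7 a lower estimate, and their median difference was -0.03 on the log2 scale. Snhg15 averaged 21.5 ± 2.91 CPM in KO and 17.3 ± 2.81 CPM in WT (0.31, edgeR adjusted p = 0.647). The 12 proteins of snoRNA particles were split 6 to 6, with a median of 0.001, and the scaffold protein Nop56 had 82.0 ± 8.30 CPM in KO and 70.2 ± 10.2 CPM in WT (0.22, edgeR adjusted p = 0.684). Nop10 and Nhp2, subunits of the particles that form pseudouridine, had lower estimates. Nop10 averaged 11.2 ± 1.95 CPM in KO and 13.8 ± 3.80 CPM in WT (-0.30, edgeR adjusted p = 0.721), and Nhp2 17.5 ± 2.25 CPM in KO and 21.1 ± 5.88 CPM in WT (-0.27, edgeR adjusted p = 0.729). Of 15 factors of nonsense-mediated decay 10 had a higher estimate in KO, with a median of 0.06, and none was called. Without WT 1 the median was -0.02 and 7 had a higher estimate, and without KO 3 it was 0.16. Upf2, which bridges the decay complex to exon junctions, had 139 ± 9.97 CPM in KO and 121 ± 15.5 CPM in WT (0.21, edgeR adjusted p = 0.680). Among the genes that neighbour the 10 RNAs on their chromosomes, 15 were tested, 8 had a higher and 7 a lower estimate, and the median was 0.01. When each library was left out in turn the medians took either sign, at -0.04 to 0.09 for the other hosts, -0.06 to 0.07 for the particle proteins and -0.07 to 0.04 for the neighbours.

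Mir17hg (chromosome 14, 115042879 to 115046727, plus strand, ENSMUSG00000089726) varied most between libraries of the same genotype. It had 14, 10.9, 28.9, 13.7 and 13.8 CPM in KO 1 to KO 5, against 25.6, 10.5, 18.8 and 9.40 CPM in WT 1 to WT 4. KO 3 and WT 1 were high and the other KO libraries lay within the WT range. The log2 fold change was 0.02 ± 0.35 (SE; edgeR adjusted p = 0.991), with a fold change interval of 0.596 to 1.73. KO 3, WT 1 and WT 3, highest in Mir17hg, had the smallest shares of unmapped fragments (10.99%, 12.22% and 15.23%). WT 4, lowest in Mir17hg, had the largest share, 27.13%. The order was not complete, since KO 2 had less Mir17hg than KO 4 at a smaller share (19.81% against 21.81%). A relation of Mir17hg to the unmapped share was not tested. The levels of the microRNAs of the seed groups printed above cannot be read from the host.

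No relation between members passed the test with these levels. Of 45 pairs 26 had a positive and 19 a negative Pearson's r of log2 CPM over the 9 libraries. Neat1 and Mir17hg had the strongest relation, with r = 0.82 and Spearman's rho = 0.77 (permutation p = 0.00827 and 0.0214, adjusted over the 45 pairs 0.302 and 0.544). It came to 0.53 without KO 3 and WT 1, the libraries farthest from the median of Neat1, and to 0.82 with the genotype means removed. Neat1 and Gas5 ran in opposite directions, with r = -0.79 and rho = -0.75 (permutation p = 0.0134 and 0.0255, adjusted 0.302 and 0.544), and r was -0.56 without the same libraries. Malat1 and Mir17hg had r = -0.67 and rho = -0.65 (permutation p = 0.0403 and 0.0666, adjusted 0.404 and 0.544), and -0.47 without KO 2 and WT 1. The values depended on scaling: with CPM by total gene counts only, r was 0.90 for Neat1 with Mir17hg (permutation, adjusted p = 0.034, which passes), -0.19 for Neat1 with Gas5 and -0.35 for Malat1 with Mir17hg. Among the 3 snoRNA hosts, Snhg1 with Snhg12 had r = 0.53 and Gas5 with Snhg12 r = 0.48 (permutation, adjusted p = 0.471 for each). Gas5 with Snhg1 had r = -0.10 (permutation, adjusted p = 0.948).

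**Figure D5:**
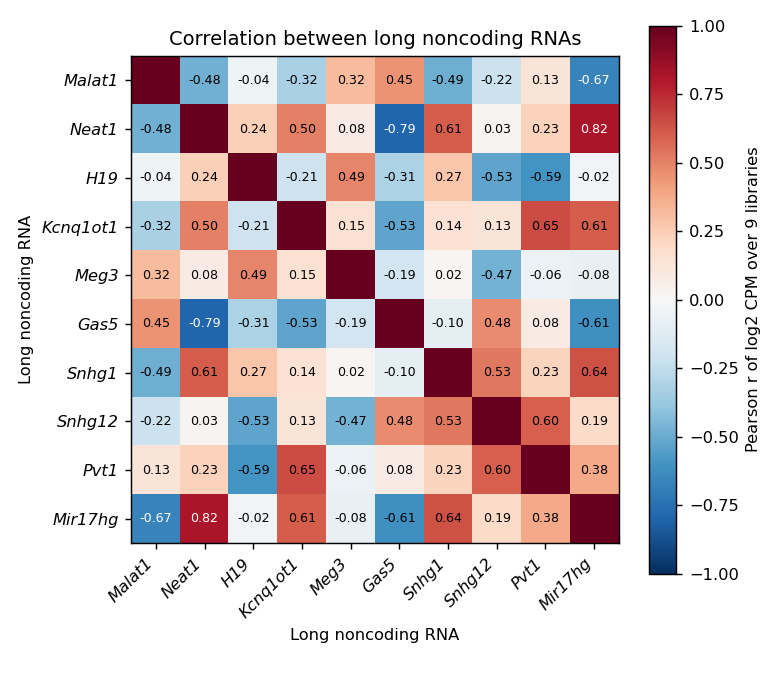
Pearson's r of log2 CPM over the 9 libraries for each pair of RNAs, in red for positive and blue for negative values. Neat1 with Mir17hg (0.82) and Neat1 with Gas5 (-0.79) are the strongest of the 45 pairs, and none passed the adjusted test with these TMM-scaled levels.

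The genes whose log2 CPM followed each RNA most closely over the 9 libraries were looked up among 8531 genes averaging 4 or more in log2 CPM, or 8532 for H19 and Meg3, which are not themselves among those genes. Each is the highest r among so many genes, given as a description. For Malat1 these were Nrbp1 (r = 0.96), Cobl (0.95) and Dhx58 (0.95), and for Neat1 Ptpn12 (0.95), Klhl24 (0.94) and Heg1 (0.93). Kcnq1ot1 was followed by Dmtf1 (0.98), Cep68 (0.96) and Nf1 (0.96), H19 by Wipf1 (0.93), Dact2 (0.91) and Tenm4 (0.91), and Meg3 by Hlf (0.91), Fam149b (0.90) and Adgrg3 (0.89). The closest to Gas5 were Sf3a3 (0.94), Pias3 (0.93) and Bbs1 (0.91), to Snhg1 Adamts1 (0.93), Tk1 (0.93) and Aldh7a1 (0.88), and to Snhg12 Mcm3 (0.89), Tfap2b (0.87) and Natd1 (0.85). Pvt1 was followed by Ube2s (0.97), Dtna (0.96) and Exoc4 (0.94), and Mir17hg by Zfp770 (0.99), Vezt (0.98) and Tm7sf3 (0.98).

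Long noncoding genes as a class had higher estimates in KO more often than lower ones. Of the 842 tested 556 had a higher and 286 a lower estimate, the median log2 fold change was 0.11, and 2 were called, 0.238% of them. In 27 of the 842 every KO library exceeded every WT library, which is 3.21% against 1.44% of all genes, and in 2 every KO library lay below, 0.238% against 1.26%. With the share of fragments outside genes as a covariate the median was 0.03 and 450 had a higher estimate. Of 18 other well-known long noncoding RNAs that were tested, 13 had a higher estimate, none was called, and the median was 0.10, which turned to -0.11 with that covariate. Crnde, an RNA raised in many human tumors, averaged 36.8 ± 4.37 CPM in KO and 28.7 ± 7.45 CPM in WT (log2 fold change 0.36, edgeR adjusted p = 0.644). Xist, which coats the inactive X chromosome, had a log2 fold change of 0.07 (edgeR adjusted p = 0.941).

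Markers of most cell types in the tumors had lower estimates in KO. All 10 epithelial markers had a lower estimate in KO, with a median of -0.43 on the log2 scale and summed levels of 3373 to 4055 CPM in KO and 3652 to 6616 CPM in WT libraries. Of 10 fibroblast markers 9 had a lower estimate, with a median of -0.78. The sum of the 10 was 249 to 485 CPM in KO and 600.5 to 851 CPM in WT, without overlap. Much of that sum came from Col1a1 and Col1a2, which averaged 153 and 90.9 CPM in KO and 319 and 198 CPM in WT. Only these 2 of the 10 had every KO library below every WT library, as 1.26% of all genes tested did. All 8 endothelial markers (median -0.83) and all 8 leukocyte markers tested (median -0.35) had a lower estimate too. Without WT 1 the medians of the epithelial, fibroblast and endothelial lists were -0.28, -0.46 and -0.33. That of the leukocyte list was -0.08, with 2 of 8 higher, without WT 1 and WT 4, and -0.13, with 3 of 8 higher, with the share outside genes as a covariate, while without KO 5 it was -0.71 over the 6 still tested. Medians were 0.44 for 6 skeletal muscle markers, -0.73 for 5 erythroid markers and -0.08 for 6 mitochondrial transcripts. Without WT 4 they were 0.26 for the muscle, -0.29 for the erythroid and 0.51 for the mitochondrial list, all 6 of whose transcripts then had a higher estimate, and the mitochondrial median was 0.07 without KO 3 and 0.17 with the share outside genes as a covariate. Leaving out each other library in turn gave 0.29 to 0.71 for the muscle and -0.96 to -0.50 for the erythroid list, and -0.31 to 0.07 for the mitochondrial list. The 6 milk genes had a median of -3.98, which rested on WT 1 and WT 4, since it was 0.11 without them. None of these markers was called by edgeR, and their part in the levels of the 10 RNAs was not tested.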

How the data were processed

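Sequencing, alignment and counting were done by the authors, who deposited a table of unnormalized counts per gene and library. Trimmomatic 0.36, FastQC 0.11.5, STAR 2.5.4a and the build GRCm38 are named in the submitters' processing notes, without order or settings. The sources used here do not give the annotation release or the strand setting. An opposite-strand gene wholly inside Malat1, Gm37376, had 484 counts in KO and 362 in WT, whereas genes nested on the same strand within Malat1, Gas5, Snhg1, Snhg12 and Mir17hg had 0, from which strand-specific counting was inferred. Entries that name no gene (unmapped 11.0% to 27.1%, multimapped 5.50% to 9.53%, no feature 34.0% to 50.4%, ambiguous 0.971% to 1.23% of fragments) were left out of library sizes and tests.

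Symbols, positions and biotypes came from GENCODE M21 on GRCm38 (55141 of 55401 identifiers matched). KO was compared with WT with edgeR 4.0.16 in R 4.3.3 (TMM factors, filterByExpr, quasi-likelihood test, genotype only), with Benjamini-Hochberg adjustment over 14665 genes, a threshold of 0.05 and two-sided tests. The SE is the log2 fold change over the square root of F. CPM use TMM-scaled library sizes, and log2 CPM for ratios and correlations used a prior count of 2. Permutation tests enumerated all assignments of libraries, or for correlations the 362880 orders, with SciPy 1.17.1. In simulated data with 200 of 14665 genes changed, edgeR recovered 84 at 2-fold with 5 false calls and 183 at 4-fold with 9, DESeq2 1.42.0 118 with 26 and 188 with 35, and limma-voom (limma 3.58.1) 82 with 4 and 180 with 12.

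The members, the tests, the 17 gene lists and the choice of named genes were chosen with earlier results of these data known. Named are the members and up to 4 genes of each list with the smallest p. For each member the 3 genes of highest r are named too, leaving out predicted genes and pseudogenes. Kcnq1, Cdkn1c, Rian, Slc3a2, Sfpq, Nono, Epcam, Krt14, Krt5 and Xist were added as partners or markers after their values were seen. Alternatives were DESeq2, limma-voom, other scalings and filters, a block for the sample number, a covariate for age, and libraries left out. Each limma-voom fit, also that of the simulated data, used sample weights. The covariate for fragments outside genes, and the left-out libraries for the correlations and permutation tests, were chosen after seeing the data.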

Additional observations from a re-analysis of the deposited data

Results flagged for a closer look

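In groups of 4 to 5 libraries, the library farthest from the rest was set against the range of its group for the 10 RNAs, the ratios and related measures, 32 groups in all. In 4 of them 1 library stood apart by Dixon's 95% critical value, where chance gives about 1 in 20 groups. Meg3 stood apart in KO 4, at 18.8 CPM, and Mir17hg in KO 3, at 28.9 CPM. The log2 ratio of Neat1 to Malat1 stood apart in WT 1, at -1.67, the library with the least Malat1. The log2 ratio of Meg3 to Rian was 0.0 in WT 1, below the other WT libraries at 1.19 to 1.39.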

How the results depend on the processing

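None of the 10 RNAs was called under any of the 21 other settings of the test, nor any ratio or single-RNA permutation test under theirs. The permutation tests had little room to pass. Over all 9 libraries the smallest permutation p, 0.00794, came to 0.0794 for Pvt1 after adjustment over the 10 members. A single RNA could therefore not pass alone, nor could a single ratio with a library left out. The estimates of Pvt1, Kcnq1ot1 and Snhg12 stayed above 0 in all 21 other settings of the test. On the log2 scale they were 0.44 to 0.85, 0.20 to 0.61 and 0.10 to 0.26. The other 7 changed sign under some settings, and the cause was not tested. With limma-voom these were Malat1 (-0.017), Neat1 (-0.011) and Mir17hg (-0.065). With age as a covariate they were Neat1 (-0.11), Meg3 (-0.074) and Mir17hg (-0.37). Without WT 1 and WT 4 they were Malat1 (-0.047), H19 (0.095, against -0.42 over all libraries) and Gas5 (-0.069). With the share outside genes as a covariate they were Neat1 (-0.094), Meg3 (-0.13), Snhg1 (-0.032) and Mir17hg (-0.63). Leaving out each library in turn gave -0.032 to 0.11 for Neat1, -0.29 to 0.33 for Mir17hg, -0.18 to 0.34 for Meg3, -0.067 to 0.12 for Malat1 and -0.013 to 0.13 for Gas5. For the ratios it gave -0.14 to 0.18 (Neat1 to Malat1), -0.29 to 0.17 (Meg3 to Rian), -0.23 to 0.47 (Kcnq1ot1 to Cdkn1c) and -0.099 to 0.079 (Gas5 to Snhg1). A prior count of 0.5 turned Kcnq1ot1 to Cdkn1c to -0.025. H19 has no value at a mean count of at least 50, which it does not reach.

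The labels do not say that a sample number marks a shared source, and the numbers were not taken to pair the libraries because not every same-numbered pair deviated together, with correlations of -0.02, 0.38, 0.11 and 0.38. KO 2 and KO 4 correlated best with the WT library of their own number (highest other 0.07 and 0.09), KO 1 and KO 3 with another (0.20 and 0.57). As a replicate block they gave 10 calls over all genes against 13, a Pvt1 estimate of 0.75 (edgeR adjusted p = 0.203) and a Neat1 estimate of -0.0067. Over all genes DESeq2 called 63, the test with no filter on low counts 29, a mean count of at least 50 left 6, the share outside genes as a covariate 7, and leaving out each library in turn 6 to 13. Of the listed genes DESeq2 called 6 (Cd14, Col1a1, Col1a2, Csn1s2a, Csn2 and Lalba) and no filter 3 (Col1a2, Csn1s2a and Lalba). Among the correlations 1 passed with CPM by total gene counts only, Neat1 with Mir17hg (r = 0.90, permutation, adjusted p = 0.034), while Neat1 with Gas5 came to -0.19 and Malat1 with Mir17hg to -0.35. For the share outside genes, 0 to 1 of the members passed when each library was left out, the 1 being Mir17hg without WT 1 (r = 0.88, permutation, adjusted p = 0.0479). H19 rests on the fewest counts, 10 to 35 a library, and its fitted spread is at the 88.5 percentile of all genes.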

Other observations

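The 2 long noncoding genes that were called are predicted genes, picked after their values were seen since the choice of named genes leaves such genes out. Gm15918 averaged 2.45 ± 0.611 CPM in KO tumors and had 0 counts in every WT library (edgeR adjusted p = 0.0211). Gm43305 averaged 0.108 ± 0.0996 CPM in KO and 12.2 ± 14.7 CPM in WT tumors (edgeR adjusted p = 0.0385), a WT spread larger than its mean. The next smallest p among long noncoding genes belonged to Hoxb3os, the antisense RNA at the homeobox gene Hoxb3, at 10.0 ± 3.29 CPM in KO and 1.88 ± 1.11 CPM in WT tumors (SD; log2 fold change 2.38, edgeR adjusted p = 0.166).

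Several listed regulatory RNAs were below what could be tested, and 3 are named here after their values were seen. Hotair, an RNA linked to breast cancer metastasis in humans, had 0 counts in KO and 0 in WT libraries. Tsix, the antisense partner of Xist, had 33 counts over the KO and 13 over the WT libraries, and Mir155hg, the host of miR-155, had 7 over the KO and 9 over the WT libraries.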
